A study of Homo sapiens with 12 samples.

Results

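WEE1, CDK1 and the genes that set CDK1 activity at the entry into mitosis were followed across 12 expression arrays of cells given a Wee1 inhibitor, an Hsp90 inhibitor or both. The set holds 10 genes of 19775 measured, listed by name for their role, with earlier results of these data known: the kinase genes WEE1 and PKMYT1, the kinase gene CDK1, its cyclin genes CCNB1, CCNB2 and CCNA2, the phosphatase genes CDC25A, CDC25B and CDC25C, and the kinase gene PLK1. Each gene was read from the probe set that carries its symbol alone and is brightest on average, and the 10 genes have 22 such probe sets in all. The samples carry the label PC3, a prostate cancer line, and form 4 groups of 3 arrays. The groups are control, 2.5 µM of Wee1 inhibitor II, 40 nM of 17-AAG, and the 2 drugs combined at these doses. 17-AAG blocks the chaperone Hsp90. It was added 24 h after Wee1 inhibitor II, the cells were harvested 48 h after 17-AAG, and the protocol gives vehicle to the controls, which the labels call untreated. Each group holds a single dose and a single time. The submitters set aside control replicate 2 for weak signal, so the values below come from 11 arrays, with 2 left in the control group.

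CDK1 bound to a B-type or A-type cyclin drives cells into mitosis. WEE1 and PKMYT1 hold it back by phosphorylating CDK1 near its ATP site, and the CDC25 phosphatases take these phosphates off. PLK1 promotes the switch by activating CDC25 proteins and by marking WEE1 for degradation, so inhibitors and activators of CDK1 form feedback loops. Most of these transcripts are made mainly in G2 and M phase of dividing cells, whereas CDC25A belongs to the genes switched on at the G1/S border. Wee1 inhibitor II acts on the enzyme, so the WEE1 transcript is no check of its action. In bulk RNA, a smaller share of cells in a phase and less RNA per cell cannot be told apart.

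The markers went against the labelled line on the 11 arrays compared. Of 6 measured pigment cell genes the summed signal was 31680 to 33240 in control, 25705 to 28256 with Wee1 inhibitor II, 39321 to 44640 with 17-AAG and 46545 to 48136 with both drugs, against 360.0 on control replicate 2. MLANA, a melanosome gene, had 2865 to 9916 on the 11 arrays and 2.67 on control replicate 2. CTNNA1 and STAT3, which PC3 lacks by deletion, had 2559 to 5040 and 819 to 1296 on the 11 arrays and 1.57 and 7.54 on control replicate 2. Of 6 measured prostate epithelium genes, HOXB13, EPCAM, KRT8 and KRT18 had 2087, 1096, 615 and 2238 on control replicate 2, against at most 11.3, 26.2, 45.5 and 650 on the others. The other 2 did not set it apart, with KLK3 at 79.9 against 41.8 to 90.2 and CDH1 at 5.55 against 1.79 to 13.2. Blood cell markers summed to at most 31.8 on every array, and the fibroblast list, carried by LUM, to 418 to 1902 on the 11. The 11 arrays are therefore called by their labels only, and results are given with and without control replicate 2. The pigment cell sum moved with treatment, and its part in the results was not tested. The log2 gap between the 3-prime and 5-prime control probe sets of ACTB, a sign of RNA integrity, was 0.69 ± 0.03 in control (SD, n = 2), 0.68 ± 0.09 with Wee1 inhibitor II, 0.96 ± 0.08 with 17-AAG and 0.96 ± 0.05 with both drugs (n = 3 each). It moved with 17-AAG, and its part in the contrasts of 17-AAG or both drugs against control was not tested. The same gap of GAPDH was -0.063 in control, -0.050 with Wee1 inhibitor II, -0.037 with 17-AAG and -0.012 with both drugs.

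Promoter sequence of 8 of the 10 genes was at hand. The short motifs searched for were not all shared by these genes, and any link between motifs and array values was not tested. The RefSeq windows (build GRCh38.p14) were searched over the 250 bases before each start, on both strands. Searched were the CCAAT box (CCAAT or ATTGG), which the factor NF-Y binds, the cell cycle homology region or CHR (TTTGAA or TTCAAA), which DREAM and MuvB complexes bind, and an E2F site (TTTCGCGC, TTTGGCGC, GCGCGAAA or GCGCCAAA). Printed are the last 130 bases before the start, 5′ to 3′ on the gene's strand, with matches in capitals. For a gene with several starts, the window with the most CCAAT box and CHR matches in these bases was picked. Other spellings of the motifs were not searched, so a window without a match may still hold one. CCNA2 and CDC25B, with a CCAAT box and no match to the searched CHR letters there, are not printed. They run over chr15:59105016-59105145 (plus strand) for CCNB2, chr10:60778348-60778477 (plus) for CDK1, chr16:23678759-23678888 (plus) for PLK1, chr5:138331805-138331934 (minus) for CDC25C, chr5:69167020-69167149 (plus) for CCNB1 and chr3:48188418-48188547 (minus) for CDC25A.
CCNB2: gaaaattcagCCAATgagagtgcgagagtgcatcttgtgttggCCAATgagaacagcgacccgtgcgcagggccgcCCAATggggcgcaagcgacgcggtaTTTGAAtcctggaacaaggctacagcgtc
CDK1: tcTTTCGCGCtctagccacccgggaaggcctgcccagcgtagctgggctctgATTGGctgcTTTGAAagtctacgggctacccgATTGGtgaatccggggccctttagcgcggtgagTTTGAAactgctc
PLK1: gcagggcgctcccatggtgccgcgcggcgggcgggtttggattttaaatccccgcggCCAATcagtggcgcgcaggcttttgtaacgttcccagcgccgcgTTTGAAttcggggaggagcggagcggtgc
CDC25C: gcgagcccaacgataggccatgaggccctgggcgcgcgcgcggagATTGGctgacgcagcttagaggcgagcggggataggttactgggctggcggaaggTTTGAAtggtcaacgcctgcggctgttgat
CCNB1: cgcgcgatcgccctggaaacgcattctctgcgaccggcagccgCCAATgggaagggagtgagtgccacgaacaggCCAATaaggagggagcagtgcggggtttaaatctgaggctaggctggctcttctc
CDC25A: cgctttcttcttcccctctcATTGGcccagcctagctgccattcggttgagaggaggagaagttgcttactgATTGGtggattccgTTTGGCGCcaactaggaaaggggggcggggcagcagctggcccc

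A CCAAT box lay in at least 1 window of all 8 genes and in 11 of their 15 windows, against 32.04% of 34943 windows of all genes. A CHR match (TTTGAA or TTCAAA) lay in 5 of the 15 windows, of CCNB2, CDK1, PLK1 and CDC25C, against 13.4% of all windows. The same 5 windows held matches to both motifs, against 4.70% of all windows. CCNB2 had CCAAT boxes 120, 87 and 54 bases before the start, 33 bases apart, and a CHR 29 bases before it. PLK1 had a CCAAT box and a CHR 73 and 29 bases before the start, and CDC25C, at the fourth of its 4 starts, 85 and 30 bases before it. CDK1, at the second of its 2 starts, had 2 CCAAT boxes 32 bases apart, as did CCNB1. An E2F site lay in a window of CDK1 and of CDC25A, against 0.956% of all windows. These matches describe letters in the window and say nothing of binding. The windows were not tested against the array values.

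With both drugs all 10 genes fell against control, to between 15.0% of the control signal for CDC25A and 66.5% for CDC25B. Wee1 inhibitor II alone lowered PKMYT1, CCNA2 and CDC25A, and 17-AAG alone lowered these 3 together with CCNB1 and PLK1. None of the 10 was called higher with either drug alone or with both. At an unadjusted limma p under 0.05, WEE1 (log2 change 0.27) and CDC25B (0.23) stood higher with Wee1 inhibitor II. CDC25C (0.52) did so with 17-AAG. Calls rest on a limma adjusted p below 0.05, adjusted over all 19775 genes. With Wee1 inhibitor II 3 of 10 were called lower, where 10.3% of all genes and 21.5% of the 8385 genes with a mean signal of at least 100 were, and 0 higher, where 14.5% of all genes were. With 17-AAG 5 of 10 were called lower, where 6.80% of all genes and 13.9% of the brighter genes were, and 0 higher (9.93% of all genes). With both drugs 10 of 10 were called lower, where 11.3% of all genes and 23.0% of the brighter genes were, and 0 higher (16.7% of all genes). The median log2 change of the 10 genes was -0.07, -0.24 and -1.56 in these comparisons, against 0.12, 0.01 and 0.11 over all genes. All 3 comparisons use the same 2 control arrays.

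These counts depend on which arrays enter. With control replicate 2 included, limma called 0, 0 and 4 of the 10 genes in the 3 comparisons, with 2, 2 and 8 at an unadjusted p under 0.05, and the 4 were CDK1, CDC25A, CDC25B and CDC25C. A limma fit of the 17-AAG and control arrays alone called 0 of the 10 genes and 0 of all genes, with 6 and 4816 at an unadjusted p under 0.05, so every call of 17-AAG against control rests on the spread estimated over all 4 groups. Leaving out any 1 of the 11 arrays kept all 10 genes called with both drugs. It left 2 or 3 called with Wee1 inhibitor II and 3 to 6 with 17-AAG, with 3 called without control replicate 1, control replicate 3 or 17-AAG replicate 1.

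**Figure D1:**
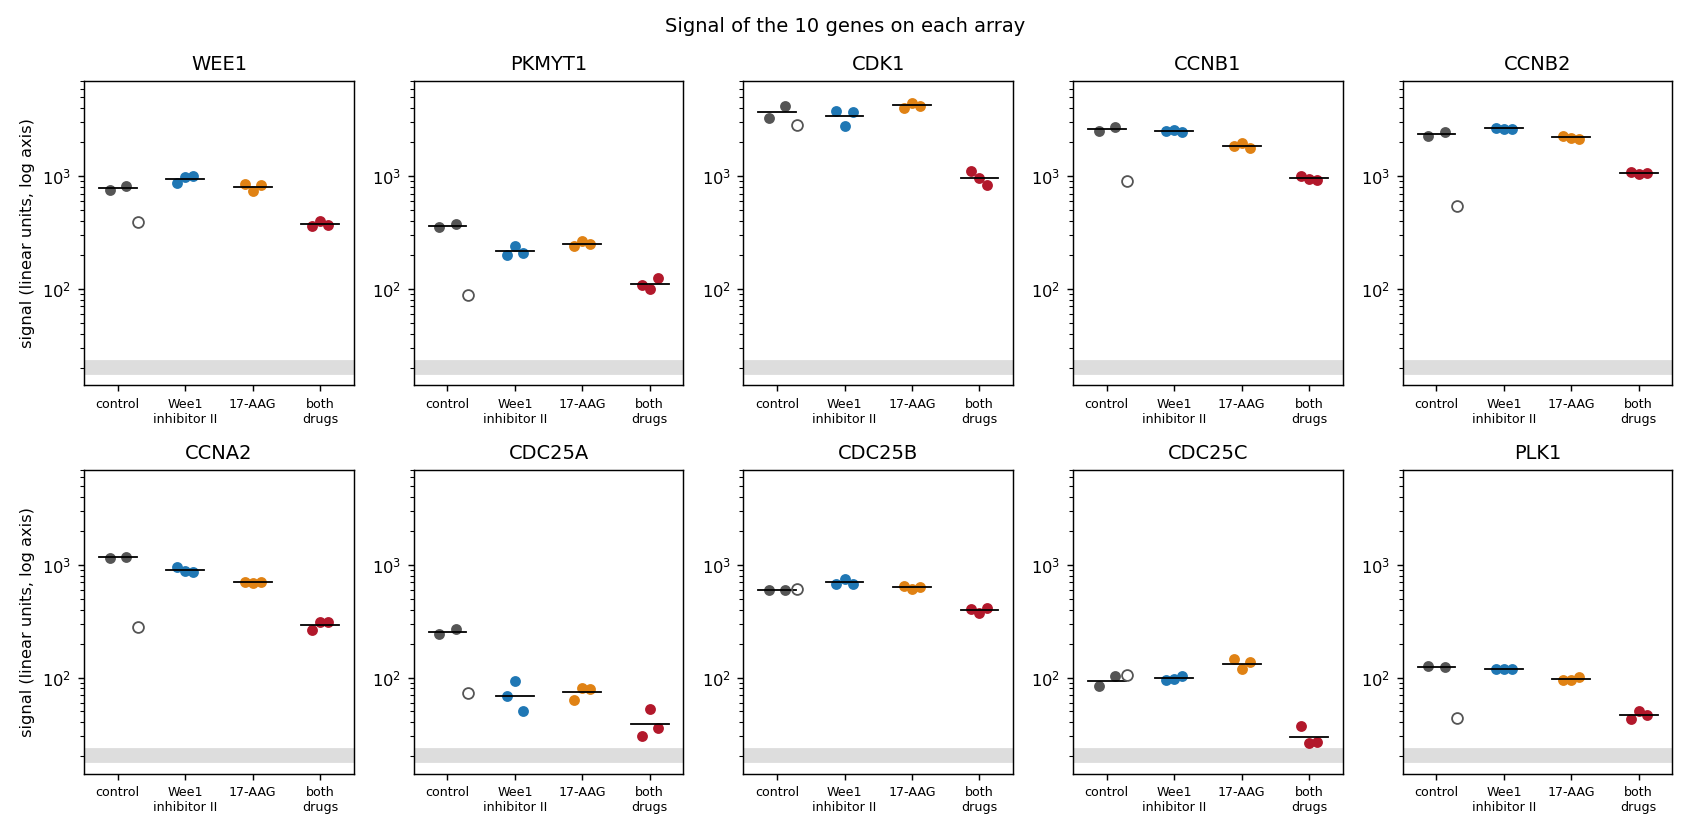
Signal of each gene on each array, in linear units on a log axis, by group. Filled points are the 11 arrays compared, bars are geometric means, the open point is control replicate 2, and the grey band spans the array medians (17.7 to 23.1). Among the filled points the arrays with both drugs lie lowest for every gene but CDC25A, where 1 of them (52.4) lies above a Wee1 inhibitor II array (50.6). The open point lies below all 3 of them for PKMYT1 (87.3), CCNB1 (903) and CCNB2 (546).

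WEE1, the kinase gene itself, did not pass the test with either drug alone and fell with both. Its signal was 758 and 822 on the control arrays, 867, 992 and 999 with Wee1 inhibitor II, 849, 737 and 831 with 17-AAG, and 362, 401 and 371 with both drugs. The 3 arrays with both drugs lay far below the other 8, the Wee1 inhibitor II arrays lay above both controls, and the 17-AAG arrays spread on either side of the controls. Against control the log2 change was 0.27 ± 0.11 with Wee1 inhibitor II (SE, adjusted p = 0.111 in limma), and -1.06 ± 0.11 with both drugs (adjusted p = 0.000213), a fall to 47.9% of control. With 17-AAG it was 0.03 ± 0.11 (adjusted p = 0.913, 95% confidence interval -0.22 to 0.27). In order of level WEE1 ran from Wee1 inhibitor II (951) to 17-AAG (804), control (789) and both drugs (378). The first 3 neighbours did not pass a test between each other, and the step down to both drugs did from each of them. The second WEE1 probe set fell with both drugs too (-0.99 ± 0.14, adjusted p = 0.00157 among all probe sets), and with 17-AAG it stood at -0.15 ± 0.14 (adjusted p = 0.585). The small WEE1 values with single drugs varied with the processing. The value with Wee1 inhibitor II, 0.27, passed with trended and robust empirical Bayes (adjusted p = 0.037) and with the dimmest 40% of genes left out (0.0464). Centring each array on its median gave -0.046 with Wee1 inhibitor II and -0.092 with 17-AAG, and leaving out control replicate 1 or 17-AAG replicate 1 gave -0.032 and -0.012 with 17-AAG.

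PKMYT1, the membrane-bound kinase that shares the inhibitory role of WEE1, fell with each drug and fell further with both. Its signal was 354 and 376 in control, 199.97, 239 and 209 with Wee1 inhibitor II, 239, 265 and 250.4 with 17-AAG, and 107, 100.4 and 125 with both drugs. Both controls lay above all treated arrays, and the arrays with both drugs lay below all others, while the single drug groups met at 239. The log2 change was -0.76 ± 0.12 with Wee1 inhibitor II (adjusted p = 0.00272), -0.54 ± 0.12 with 17-AAG (adjusted p = 0.0195) and -1.73 ± 0.12 with both (adjusted p = 4.38e-05, limma). The 17-AAG call was lost without control replicate 1 (adjusted p = 0.0726), control replicate 3 (0.113), 17-AAG replicate 1 (0.0637) or 17-AAG replicate 3 (0.0565). PKMYT1 has a single probe set, of a type whose probes can match other transcripts. The difference between PKMYT1 and WEE1 within an array shifted from control by -1.03 ± 0.10 with Wee1 inhibitor II, -0.56 ± 0.18 with 17-AAG and -0.66 ± 0.21 with both drugs (log2, SD, n = 3). Relative to WEE1, PKMYT1 thus stood lower on every treated array than on the controls.

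CDK1, the catalytic subunit, did not pass the test with either drug alone and fell to 25.9% of control with both. Its signal was 3294 and 4192 in control, 3784, 2772 and 3746 with Wee1 inhibitor II, 4040, 4500 and 4218 with 17-AAG, and 1102, 965 and 837 with both drugs. The first 3 groups overlapped or lay close together, and the highest array with both drugs was far below the lowest of the others. The log2 change was -0.13 ± 0.18 with Wee1 inhibitor II (adjusted p = 0.691, interval -0.55 to 0.29), 0.19 ± 0.18 with 17-AAG (adjusted p = 0.568, interval -0.23 to 0.61) and -1.95 ± 0.18 with both (adjusted p = 0.000154, limma). Its order of level ran from 17-AAG (4248) to control (3716), Wee1 inhibitor II (3400) and both drugs (962), and no 2 of the first 3 passed a test. The other 3 CDK1 probe sets gave -2.19, -2.18 and -2.15 with both drugs. The sign with Wee1 inhibitor II turned without control replicate 3 (0.046) or Wee1 inhibitor II replicate 2 (0.019), and with 17-AAG in the mean of the probe sets (-0.038).

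CCNB1 and CCNB2, the B-type cyclins that bring CDK1 into mitosis, fell with both drugs, and of them only CCNB1 was called with 17-AAG. CCNB1 had 2536 and 2737 in control, 2526, 2553 and 2482 with Wee1 inhibitor II, 1847, 1985 and 1793 with 17-AAG, and 999, 935 and 931 with both drugs. CCNB2 had 2297 and 2495 in control, 2701, 2647 and 2648 with Wee1 inhibitor II, 2286, 2199 and 2146 with 17-AAG, and 1099, 1045 and 1075 with both. For CCNB1 the 17-AAG arrays lay between the controls and the arrays with both drugs without overlap, and for CCNB2 they lay just below the controls. CCNB1 fell with 17-AAG (-0.49 ± 0.08 on the log2 scale, adjusted p = 0.00598) and with both drugs (-1.46 ± 0.08, adjusted p = 1.98e-05, limma), and stood at -0.06 ± 0.08 with Wee1 inhibitor II (adjusted p = 0.655). CCNB2 stood at 0.16 ± 0.08 with Wee1 inhibitor II (adjusted p = 0.192) and -0.12 ± 0.08 with 17-AAG (adjusted p = 0.384), and fell by 1.16 ± 0.08 with both (adjusted p = 3.17e-05). The difference between the 2 genes in their response to 17-AAG was not tested. The second CCNB1 probe set stood at -0.45 ± 0.13 with 17-AAG and did not pass (adjusted p = 0.0575 among all probe sets, limma). Relative to CDK1, the 17-AAG arrays shifted by -0.69 ± 0.05 for CCNB1 and -0.31 ± 0.11 for CCNB2, and the arrays with both drugs by 0.49 ± 0.15 and 0.79 ± 0.19 (log2, SD, n = 3), since CDK1 lost more signal than either cyclin with both drugs. The CCNB2 values rest on its bright probe set. Its other 2 lay at signals of 1.21 to 32.6 on the 11 arrays, near or below the array medians, and with the mean of all 3 its value for both drugs was 0.53 (adjusted p = 0.534).

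CCNA2, the A-type cyclin of S and G2 phase, stepped down through the 4 groups. Its signal was 1144 and 1185 in control, 949, 889 and 862 with Wee1 inhibitor II, 699, 697 and 703 with 17-AAG, and 266, 309 and 308 with both drugs. No 2 groups overlapped. The log2 change was -0.37 ± 0.09 with Wee1 inhibitor II (adjusted p = 0.0195), -0.73 ± 0.09 with 17-AAG (adjusted p = 0.00197) and -1.99 ± 0.09 with both (adjusted p = 1.17e-05, limma), and 17-AAG lay below Wee1 inhibitor II by -0.36 ± 0.08 (adjusted p = 0.0177). The call with Wee1 inhibitor II was lost without control replicate 1 (adjusted p = 0.0704), control replicate 3 (0.106), Wee1 inhibitor II replicate 2 (0.0504) or Wee1 inhibitor II replicate 3 (0.0607). It was also lost after quantile normalisation (adjusted p = 0.0559), with only the arrays compared (0.0957) and in the mean of its 2 probe sets (-0.25, adjusted p = 0.141). The dimmer of the 2 probe sets stood at -0.12 with Wee1 inhibitor II (adjusted p = 0.603 among all probe sets, limma).

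CDC25A, the phosphatase that also acts on CDK2 at the G1/S border, fell most with each drug alone. Its signal was 243 and 268 in control, 68.3, 93.1 and 50.6 with Wee1 inhibitor II, 63.7, 81.6 and 79.1 with 17-AAG, and 30.5, 52.4 and 35.4 with both drugs. Every treated array lay far below both controls, and the treated groups partly overlapped. The log2 change was -1.90 ± 0.29 with Wee1 inhibitor II (adjusted p = 0.00236), -1.78 ± 0.29 with 17-AAG (adjusted p = 0.00564) and -2.73 ± 0.29 with both (adjusted p = 0.000289, limma). With both drugs CDC25A differed from 17-AAG alone by -0.95 ± 0.26 (adjusted p = 0.0376) and from Wee1 inhibitor II alone by -0.84 ± 0.26 (adjusted p = 0.0765). The first of these 2 was lost in 8 of the fits that leave out an array, at an adjusted p of up to 0.118 (without replicate 1 of both drugs). The second passed without Wee1 inhibitor II replicate 3 (adjusted p = 0.0427) or without replicate 2 of both drugs (0.0388). The treated signals lay only a few times above the array medians, where folds are rough. The other 2 probe sets stood at -2.22 and -2.91 with Wee1 inhibitor II (adjusted p = 0.00822 and 0.0632 among all probe sets, limma). With 17-AAG they stood at -1.10 and -1.01 (adjusted p = 0.145 and 0.583). With both drugs each was called lower against control, but they stood at -0.15 and -0.10 against Wee1 inhibitor II alone. The mean of the 3 probe sets did not pass with 17-AAG (-1.30, adjusted p = 0.101).

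CDC25B and CDC25C, the phosphatases that act on CDK1 at mitotic entry, did not pass with either single drug. CDC25B had 595 and 601 in control, 675, 755 and 678 with Wee1 inhibitor II, 651, 614 and 639 with 17-AAG, and 408, 371 and 414 with both drugs. CDC25C had 84.7 and 102 in control, 94.7, 96.8 and 104 with Wee1 inhibitor II, 145, 119 and 137 with 17-AAG, and 36.8, 26.5 and 27.0 with both. Both genes were lowest on the 3 arrays with both drugs, and the single drug arrays of CDC25B and the 17-AAG arrays of CDC25C lay above both controls. CDC25B stood at 0.23 ± 0.09 with Wee1 inhibitor II (adjusted p = 0.0993) and 0.09 ± 0.09 with 17-AAG (adjusted p = 0.604), and fell by 0.59 ± 0.09 with both (adjusted p = 0.00154, limma), the smallest fall of the 10 genes. CDC25C stood at 0.08 ± 0.17 with Wee1 inhibitor II (adjusted p = 0.799) and 0.52 ± 0.17 with 17-AAG (adjusted p = 0.076), and fell by 1.65 ± 0.17 with both (adjusted p = 0.000232). The CDC25B value with Wee1 inhibitor II passed with trended and robust empirical Bayes (adjusted p = 0.048), with the dimmest 40% of genes left out (0.0388) and with signals below 32 set to 32 (0.0327). The CDC25C value with 17-AAG passed without replicate 1 of both drugs (adjusted p = 0.0348), with the dimmest 40% of genes left out (0.0277) and with signals below 32 set to 32 (0.0192). The signs of CDC25B and CDC25C with Wee1 inhibitor II turned after median centring (-0.083 and -0.23), as did that of CDC25B with 17-AAG (-0.033), and CDC25C turned without control replicate 1 (-0.056). With both drugs CDC25C lay close to the array medians, so its fold is rough, and the mean of its 3 probe sets gave -1.01 (adjusted p = 0.07). Relative to WEE1 within an array, both drugs shifted CDC25A by -1.67 ± 0.33, CDC25C by -0.58 ± 0.33 and CDC25B by 0.47 ± 0.16 (log2, SD, n = 3), so WEE1 lost more signal than CDC25B and less than the other two.

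PLK1, the kinase that feeds back on CDC25 and WEE1, fell with 17-AAG and further with both drugs. Its signal was 126 and 123 in control, 119, 118 and 118 with Wee1 inhibitor II, 94.9, 94.3 and 102 with 17-AAG, and 42.7, 50.1 and 46.0 with both drugs. The 4 groups did not overlap, but the step from control to Wee1 inhibitor II was small. The log2 change was -0.07 ± 0.09 with Wee1 inhibitor II (adjusted p = 0.642, interval -0.27 to 0.13), -0.36 ± 0.09 with 17-AAG (adjusted p = 0.0265) and -1.43 ± 0.09 with both (adjusted p = 2.47e-05, limma), a fall to 37.1% of control. The 17-AAG call was lost without control replicate 1 (adjusted p = 0.127), control replicate 3 (0.100), 17-AAG replicate 1 (0.0779) or 17-AAG replicate 2 (0.0593), and with trended and robust empirical Bayes (0.102). After median centring the value with Wee1 inhibitor II passed (-0.39, adjusted p = 0.00964), and so did that of CCNB1 (-0.38, adjusted p = 0.0316).

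**Figure D2:**
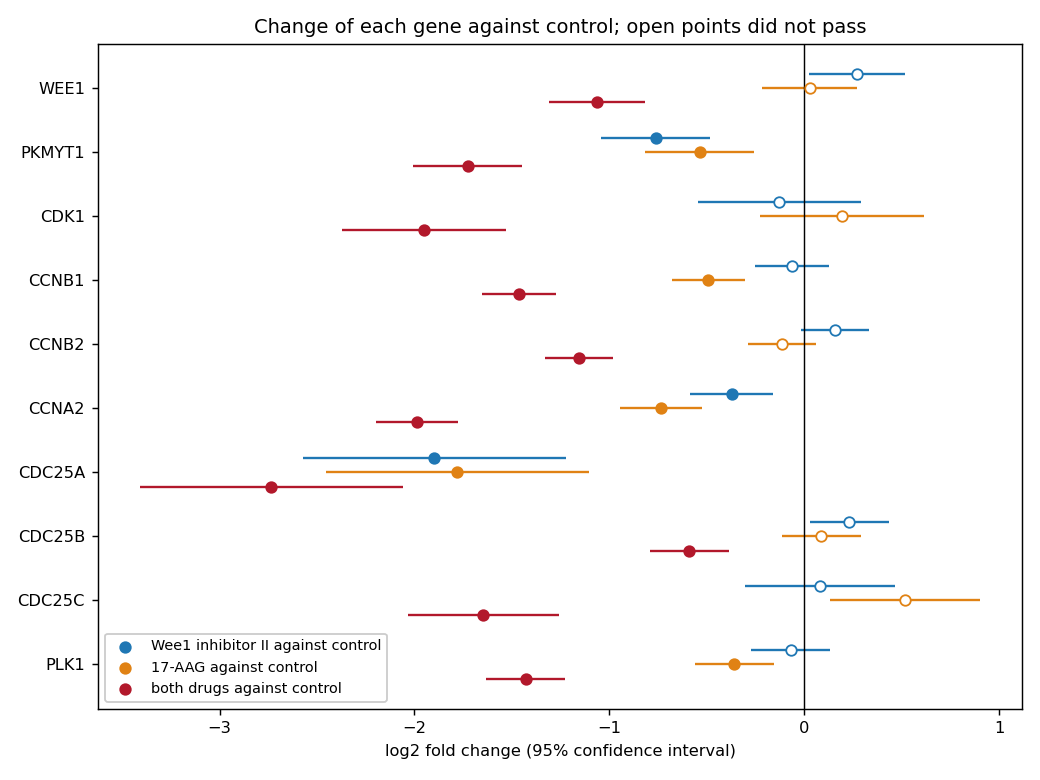
Log2 fold change of each gene against control with its 95% confidence interval, for Wee1 inhibitor II, 17-AAG and both drugs; filled points passed the limma test and open points did not. All 10 points for both drugs are filled and lie between -2.73 and -0.59, while WEE1, CDK1, CCNB2, CDC25B and CDC25C are open for both single drugs.

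Adding the second drug lowered the set against each single drug as well. Against 17-AAG alone 10 of 10 genes were called lower with both drugs (8.43% of all genes and 17.3% of the brighter genes were lower, and 10.9% of all genes higher), from -0.68 ± 0.08 for CDC25B to -2.16 ± 0.15 for CDC25C (adjusted p = 0.000857 and 8.14e-05, limma). Against Wee1 inhibitor II alone 9 of 10 were called lower (6.84% of all genes and 13.2% of the brighter genes were lower, and 7.27% of all genes higher), CDK1 at -1.82 ± 0.16 (adjusted p = 0.000221) and CCNA2 at -1.61 ± 0.08 (adjusted p = 2.14e-05) among them, and CDC25A was not. WEE1 fell against 17-AAG (-1.09 ± 0.10, adjusted p = 0.00023) and against Wee1 inhibitor II (-1.33 ± 0.10, adjusted p = 8.11e-05). With control replicate 2 included, 3 and 4 of the 10 genes were called. All 3 arrays with both drugs lay below all 8 others for 9 of the 10 genes, CDC25A being the exception, against 5.57% of all genes and 11.3% of the brighter genes.

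The single drugs differed from each other in 4 of the 10 genes, all lower with 17-AAG than with Wee1 inhibitor II (10.2% of all genes and 16.5% of the brighter genes were called lower, and 8.52% of all genes higher). These were CCNB1 (-0.43 ± 0.07, adjusted p = 0.00497), CCNA2 (-0.36 ± 0.08, adjusted p = 0.0177), CCNB2 (-0.27 ± 0.07, adjusted p = 0.0264) and PLK1 (-0.29 ± 0.08, adjusted p = 0.037, limma). The other 6 ranged from -0.24 ± 0.10 for WEE1 to 0.44 ± 0.15 for CDC25C, and none passed. The 4 calls were not stable. After median centring none of the 10 genes was called lower, and CDC25C was called higher (0.63, adjusted p = 0.0283). Leaving out an array gave 1 to 5 calls. The CCNB2 call was lost without any of the 6 single drug arrays, at adjusted p from 0.0504 without 17-AAG replicate 1 to 0.0824 without 17-AAG replicate 3. The CCNA2 call was lost without 17-AAG replicate 1 (adjusted p = 0.0546), 17-AAG replicate 3 (0.0501) or Wee1 inhibitor II replicate 1 (0.0622). The PLK1 call was lost in 9 such fits, at up to 0.107 without 17-AAG replicate 1.

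The interaction of the drugs asks whether the combined change differs from the sum of the 2 single changes on the log2 scale. It was below 0 and passed in limma for 8 of the 10 genes (6.97% of all genes and 13.5% of the brighter genes passed below 0, and 4.82% of all genes above): CDC25C at -2.24 ± 0.23 (adjusted p = 0.00137), CDK1 at -2.01 ± 0.24 (0.00254), WEE1 at -1.36 ± 0.14 (0.00156), CCNB2 at -1.20 ± 0.10 (0.000891), PLK1 at -0.998 ± 0.118 (0.00236), CCNB1 at -0.91 ± 0.11 (0.00255), CDC25B at -0.91 ± 0.12 (0.0034) and CCNA2 at -0.88 ± 0.12 (0.00447). Summed single changes would have put WEE1 at a signal of 968 with both drugs, and 378 was measured, 39.0% of that sum. For CDK1 the sum gave 3887 and the arrays 962 (24.7%), for CDC25C 141 and 29.7 (21.1%), and for PLK1 92.2 and 46.2 (50.1%). The combined signal was thus lower than the sum in these genes. PKMYT1 stood at -0.43 ± 0.16 (adjusted p = 0.145) and CDC25A at 0.94 ± 0.39 (adjusted p = 0.181), so the 2 of the 10 genes that fell most with Wee1 inhibitor II did not pass. For CDC25A the sum, 19.9, lies within the range of the array medians. In the mean of its probe sets, of which 2 are dim, CCNB2 lost its interaction call (-0.26, adjusted p = 0.883, limma). The same 8 genes were called without any 1 of the 11 arrays. With control replicate 2 included 2 were called, CDK1 (-2.14, adjusted p = 0.0167) and CDC25C (-2.18, adjusted p = 0.0146), and WEE1 stood at -1.69 (adjusted p = 0.0759).

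**Figure D3:**
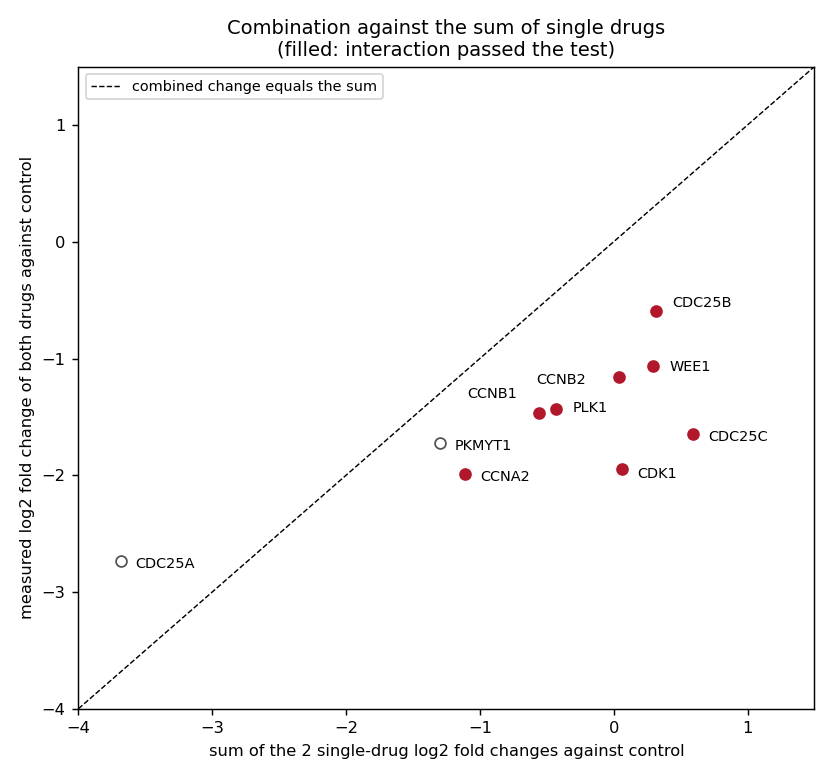
Measured log2 fold change of each gene with both drugs (vertical axis) against the sum of its 2 single drug log2 fold changes (horizontal axis), each against control. Points under the dashed line are lower than the sum; the 8 filled points passed the interaction test, PKMYT1 and CDC25A did not, and CDC25A alone lies above the line.

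Read probe set by probe set, the set gave the same picture with both drugs. Of the 22 probe sets 19 were called lower with both drugs against control, in a limma fit of all 41091 probe sets with a single symbol, and none higher, where 8.25% of all probe sets were called lower. The exceptions were the 2 dim CCNB2 probe sets (2.06 ± 1.36 and 0.67 ± 0.30) and a CDC25C probe set with a signal of at most 15.7 on the 11 arrays (0.60 ± 0.97). With Wee1 inhibitor II 4 of 22 were called lower (7.07% of all probe sets), with 17-AAG 5 of 22 (4.18%), and for the interaction 15 of 22 (3.88%). The second CCNB1 probe set stood at 0.35 ± 0.13 with Wee1 inhibitor II (adjusted p = 0.103), on the other side of 0 from the brighter probe set.

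The other genes of the pathway were read from 7 lists of 141 genes, 136 of them measured, of which the counts called lower and higher are given. They stand beside 10.3% of all genes and 21.5% of the brighter genes called lower with Wee1 inhibitor II, 6.80% and 13.9% with 17-AAG, and 11.3% and 23.0% with both drugs. Kinases and adaptors of the checkpoints that act on CDC25 and WEE1 came first. Of 20 genes, 5 were lower and 2 higher with Wee1 inhibitor II, 5 and 3 with 17-AAG, and 10 and 1 with both drugs (median -0.30, against 0.11 over all genes). The share lower with Wee1 inhibitor II was near that of the brighter genes. CHEK1, the kinase that phosphorylates CDC25 proteins after replication stress, had a mean signal of 253 in control, 149 with Wee1 inhibitor II, 181 with 17-AAG and 58.8 with both drugs, and fell by 2.11 ± 0.21 with both (adjusted p = 0.000231, limma). Its mediator CLSPN fell by 2.87 ± 0.30 (adjusted p = 0.000272) and the fork protection gene TIPIN stood at -1.46 ± 0.13 (adjusted p = 0.00012). The 14-3-3 gene YWHAH fell with both drugs to 932 from 1591, and RAD17, a clamp loader gene, was higher in all 3 comparisons. The kinase genes ATM and ATR did not pass with both drugs (0.36 and -0.14, adjusted p = 0.0506 and 0.311), and with 17-AAG ATM was higher (0.56) and ATR lower (-0.40). For this list the count of lower genes was as small as 2 with Wee1 inhibitor II (without control replicate 1) and 2 with 17-AAG (without control replicate 1 or 17-AAG replicate 1).

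The other partners, the activating kinase and the inhibitors of CDK1 split. Of 15 genes, 4 were lower and 6 higher with Wee1 inhibitor II, 0 and 2 with 17-AAG, and 4 and 3 with both drugs (median 0.02, against 0.11 over all genes). CDKN3, a phosphatase gene for CDK1 and CDK2, had 1881 in control, 1451 with Wee1 inhibitor II, 1998 with 17-AAG and 427 with both, and its interaction was -1.85 ± 0.11 (adjusted p = 0.000281, limma). CKS2 and CKS1B, small subunits bound by CDKs, fell by 1.21 ± 0.11 and 1.11 ± 0.11 with both drugs (adjusted p = 0.000129 and 0.000188). The CDK inhibitor gene CDKN1C rose from 50.9 to 282 with Wee1 inhibitor II, to 124 with 17-AAG and to 157 with both, and its interaction was -2.13 ± 0.24 (adjusted p = 0.00191). CDKN1A rose with Wee1 inhibitor II (1.20, adjusted p = 0.0425) and stood at 0.02 with both drugs (adjusted p = 0.981). CDK2 fell from 1263 to 690 with Wee1 inhibitor II and stood at 1408 with 17-AAG and 1258 with both. CDK7, the activating kinase, did not pass in any of the 3 comparisons. Among its partners, CCNH fell with Wee1 inhibitor II (-0.61 ± 0.09, adjusted p = 0.00191) and MNAT1 was higher in all 3 comparisons (0.46 with Wee1 inhibitor II, 0.53 with 17-AAG and 0.49 with both). The count with Wee1 inhibitor II was as small as 2 lower without control replicate 3, and with 17-AAG 1 higher without 17-AAG replicate 1 and 4 higher without 17-AAG replicate 2.

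Mitotic entry kinases and the Greatwall and PP2A arm fell mostly with both drugs. Of 17 genes, 5 were lower and 1 higher with Wee1 inhibitor II, 5 and 0 with 17-AAG, and 11 and 1 with both (median -0.94). AURKB, a mitotic kinase gene, had 833 in control, 436 with Wee1 inhibitor II, 648 with 17-AAG and 149 with both drugs. BORA, whose product helps Aurora A activate PLK1, had 424, 279, 296 and 140.1 in the same order, and fell by 1.60 ± 0.10 with both (adjusted p = 2.43e-05, limma). TPX2, which activates Aurora A on the spindle, had 1018, 943, 858 and 276 in that order, so its interaction was -1.53 ± 0.13 (adjusted p = 0.000894). The Greatwall kinase gene MASTL stood at -1.24 with both drugs (adjusted p = 0.000192). Its substrate genes ENSA and ARPP19 did not pass (both -0.28). PLK2 was the gene called higher with both drugs (0.39, adjusted p = 0.018), a call lost without control replicate 1 or 3 and without replicate 2 or 3 of both drugs. The count was as small as 3 lower with Wee1 inhibitor II without control replicate 1 or control replicate 3, and 2 lower with 17-AAG without control replicate 1.

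The ubiquitin ligase genes that turn over cyclins, CDC25 and WEE1 were mixed. Of 22 genes, 6 were lower and 0 higher with Wee1 inhibitor II, 9 and 0 with 17-AAG, and 8 and 2 with both drugs (median -0.17), and for the interaction 4 passed below 0 and 5 above, or as few as 1 above with an array left out. The share lower with Wee1 inhibitor II was again near that of the brighter genes. So it was in the CDK1 partner and mitotic entry lists above and in the G2/M list below. In the CDK1 partner list the share lower with both drugs was near that of the brighter genes too. UBE2C and CDC20, which serve the anaphase-promoting complex in mitosis, had 1096 and 1082 in control, 1355 and 1277 with Wee1 inhibitor II, 676 and 736 with 17-AAG, and 397 and 426 with both. FBXO5, the inhibitor of that complex, fell by 2.28 ± 0.20 with both drugs (adjusted p = 0.000118, limma). SKP2 had 1896 in control and 962, 1028 and 868 in the treated groups, close to the same level with each. CDC16, a core subunit, fell with Wee1 inhibitor II alone (2978 to 1819) and stood at 3397 with 17-AAG and 3503 with both. BTRC, a ligase subunit that recognises WEE1 and CDC25A, was higher with both drugs (0.75, adjusted p = 0.00605). FBXW7 stood at 0.04 (adjusted p = 0.893). The counts were smallest without control replicate 3, at 3 lower with each single drug.

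Transcription factors of cell cycle genes held several large falls. Of 21 genes, 8 were lower and 3 higher with Wee1 inhibitor II, 7 and 1 with 17-AAG, and 12 and 2 with both drugs (median -0.71). FOXM1, a factor for G2/M genes, had 532 in control, 301 with Wee1 inhibitor II, 367 with 17-AAG and 91.0 with both drugs, and fell by 2.55 ± 0.16 with both (adjusted p = 2.47e-05, limma). MYBL2, the B-MYB gene, had 572, 213, 302 and 62.9 in the same order. The repressor genes E2F7 and E2F8 had 507 and 532 in control and 94.2 and 44.5 with both drugs. NFYA, NFYB and NFYC, which encode the factor that binds CCAAT boxes, did not pass with both drugs (-0.23, 0.16 and -0.15), while with Wee1 inhibitor II NFYB was higher (0.67) and NFYC lower (-0.50). Of the MuvB and DREAM subunit genes, LIN9, LIN52 and LIN54 were lower with both drugs (-0.79, -0.71 and -0.78), and LIN37 and RBBP4 did not pass. E2F5 was higher with Wee1 inhibitor II and with both drugs, from 39.4 in control to 124 and 115. Without control replicate 1 the counts were 4 lower with Wee1 inhibitor II and 2 lower with 17-AAG, and without control replicate 3 the count with Wee1 inhibitor II was 4 lower.

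The 2 lists of phase transcripts fell as a whole with both drugs and parted with single drugs. All 25 other G2/M transcripts were called lower with both drugs (median -1.73), against 7 lower and 1 higher with Wee1 inhibitor II and 5 lower with 17-AAG, and 22 of 25 passed the interaction test below 0. BIRC5, the survivin gene, had 1902 in control, 1482 with Wee1 inhibitor II, 1426 with 17-AAG and 407 with both drugs. PRC1, a spindle midzone gene, had 2254, 2264, 2079 and 657 in the same order, and its interaction was -1.67 ± 0.10 (adjusted p = 0.000389, limma). All 16 G1/S transcripts were called lower with both drugs too (median -1.64), but there 13 were already lower with Wee1 inhibitor II and 9 with 17-AAG (medians -0.57 and -0.55), and 5 passed the interaction test below 0 and 1 above. RRM2, a subunit of ribonucleotide reductase, had 4666 in control, 2190 and 2120 with the single drugs and 330 with both. CCNE2, an E-type cyclin of G1/S, had 930, 335, 402 and 109.9. The difference between the 2 lists was not tested. Of the 10 genes, CDC25A (-1.90 with Wee1 inhibitor II and -1.78 with 17-AAG) lay below the medians of the second list. PKMYT1 (-0.76 and -0.54) and CCNA2 (-0.37 and -0.73) were also called lower with each single drug. CCNB1 and PLK1 were called with 17-AAG only, and WEE1, CDK1, CCNB2, CDC25B and CDC25C with neither. The 10 genes were not tested against either list. With control replicate 2 included 12 of 25 and 6 of 16 were called lower with both drugs, and in the 5 lists above 3, 2, 2, 3 and 7. Without control replicate 1 the G2/M counts were 1 lower with Wee1 inhibitor II and 0 with 17-AAG, the latter also without control replicate 3. The G1/S counts were 8 lower with Wee1 inhibitor II without control replicate 1 or control replicate 3, and 5 lower with 17-AAG without control replicate 1.

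**Figure D4:**
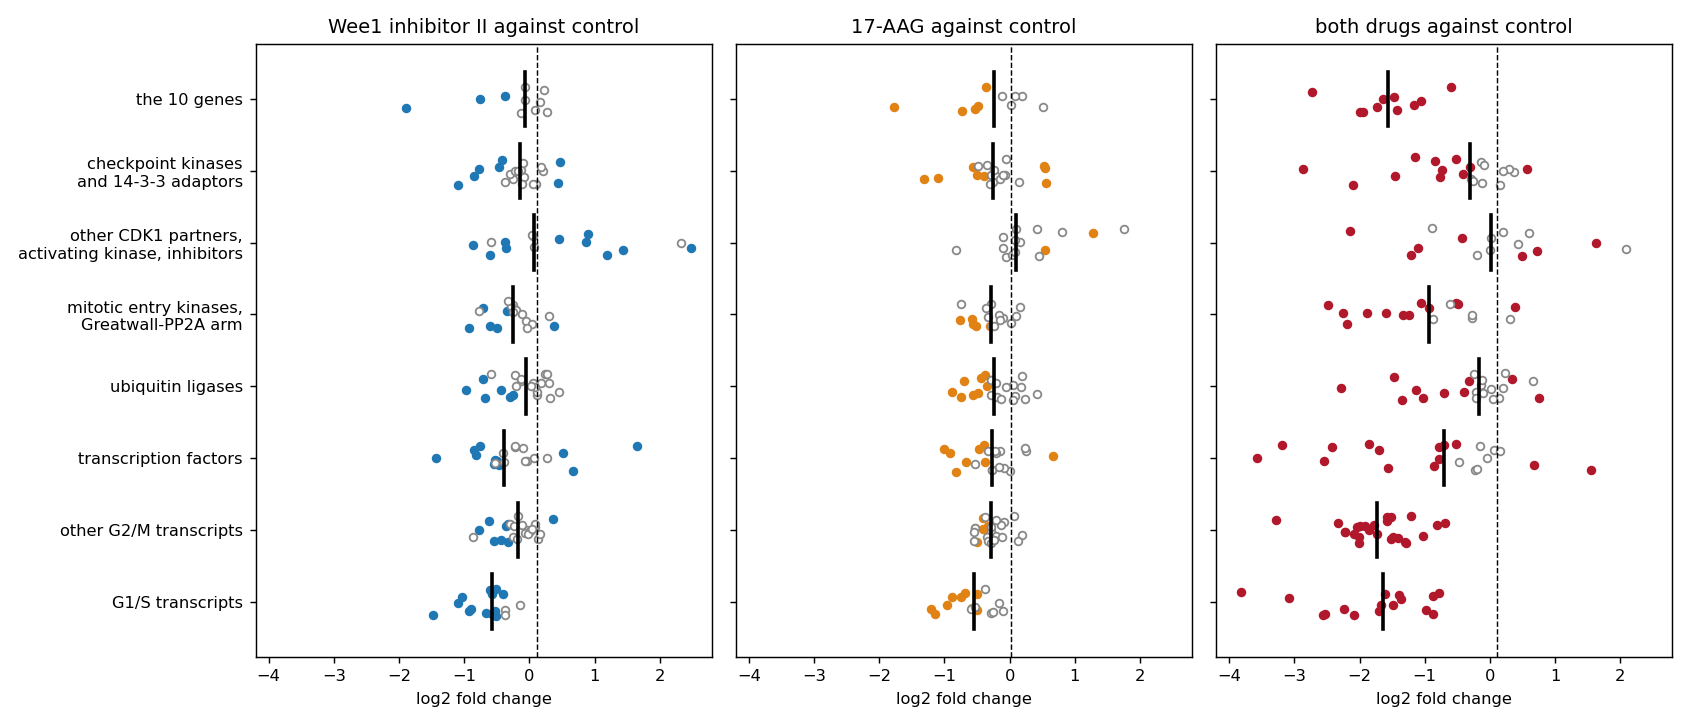
Log2 fold change against control of the 10 genes and of the genes of 7 pathway lists, in 3 panels for Wee1 inhibitor II, 17-AAG and both drugs. Each point is a gene, filled where it passed the limma test, the thick bar is the list's median and the dashed line the median of all genes. With both drugs the 10 genes, the G2/M list and the G1/S list lie wholly below 0 (medians -1.56, -1.73 and -1.64), while the ligase and CDK1 partner lists straddle it.

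Over the 11 arrays the 10 genes followed each other. The correlations are a description over 4 groups that include the 3 low arrays with both drugs. Pearson's r of log2 signal ran from 0.471 for CDC25A with CDC25B to 0.987 for CCNA2 with PLK1, and the 7 lowest of the 45 pairs all held CDC25A. Among genes with a mean signal of at least 100, those most like WEE1 over the 11 arrays were PRR11 (r = 0.989), the mitotic kinase gene NEK2 (0.988), HMGB2 (0.984), MND1 (0.981) and PIMREG (0.981). PRR11 had group means of 3873 in control, 4554 with Wee1 inhibitor II, 3921 with 17-AAG and 1665 with both drugs, so like WEE1 it was highest with Wee1 inhibitor II and lowest with both. Most like CDK1 were SQOR (0.991), BARD1 (0.984), DUSP14 (0.982), CDKN3 (0.980) and the securin gene PTTG1 (0.979). PTTG1 had 4695, 4636, 5143 and 2306 in the same order, with the order of groups that CDK1 has.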

How the data were processed

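Biotin-labelled RNA (100 ng) of 12 samples was read on Affymetrix arrays. The deposited values are linear intensity, 1 per probe set and array, with a 2% trimmed mean of 150.0 on each array. Partek 6.5 and RMA are named in the submitters' processing notes, yet the values are not on the log2 scale and are not equally distributed, as RMA output would be. They were taken to log2 here and not normalised again. Other steps are not given in the sources used here.

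The platform annotation gives 1 gene symbol to 41091 of 54675 probe sets, several to 1801 and none to 11721, and 62 are array controls. A gene was read from its brightest probe set by mean log2 signal (11 arrays), which gave 19775 genes. Groups follow the titles, and control replicate 2, whose title says weak signal, was left out.

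Genes were tested with limma 3.58.1 (R 4.3.3), a mean per group over 11 arrays, 7 residual and 1.12 prior degrees of freedom, and Benjamini-Hochberg adjustment over all genes within each of 7 comparisons. Errors are standard errors of that fit unless marked SD, and a group's signal is a geometric mean. The procedure was tested on simulated data. Nothing says that replicates were separate cultures, so p-values speak of the spread among these samples alone, and that spread may be technical. The number of arrays limits the precision. Within groups arrays correlated at 0.924 to 0.936, and control replicate 2 with the others at 0.825 to 0.833. No 2 arrays were identical.

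The 10 genes, the pathway and marker lists and the tests were chosen with earlier results of these data known. Named are all 10 genes, up to 4 called genes of each list by smallest p in a comparison, and 5 genes most like WEE1 and CDK1 each. Other list genes are named after their values were seen, to show the subunits or partners of a list. Alternatives were control replicate 2 included, quantile normalisation, array weights, median centring of each array, the replicate number as a block, the dimmest 40% of genes left out, trended and robust empirical Bayes, a mean over the probe sets of a gene, single probe sets, signals below 32 set to 32, only the arrays compared, and each array left out in turn.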

Additional observations from a re-analysis of the deposited data

Results flagged for a closer look

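The effect of each drug differed with the other present in 8 of the 10 genes, by the limma test of the interaction itself (log2): WEE1 -1.36, CDK1 -2.01, CCNB1 -0.91, CCNB2 -1.20, CCNA2 -0.88, CDC25B -0.91, CDC25C -2.24 and PLK1 -0.998. In each pathway list the gene with the smallest interaction p, picked by that p, was RAD1 -0.83 (checkpoints), CDKN3 -1.85 (CDK1 partners), TPX2 -1.53 (mitotic entry), UBE2C -1.07 (ubiquitin ligases), E2F8 -2.35 (transcription factors), PRC1 -1.67 (G2/M) and TYMS -1.76 (G1/S). These genes do not stand for their lists: of 22 ubiquitin ligase genes 4 passed below 0 and 5 above, CDC16 at 0.76 among the latter.

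Control replicate 2, which enters only the alternative fits that name it, carried 4 of 6 prostate epithelium genes far above every other array: HOXB13 had a signal of 2087, EPCAM 1096, KRT8 615 and KRT18 2238. KLK3 (79.9) and CDH1 (5.55) lay within the range of the other arrays. Of the 10 genes it had WEE1 at 392, CCNB2 at 546, CCNA2 at 284 and PLK1 at 43.8, all well below the other 2 controls, and CDC25B at 608 and CDC25C at 106, just above them.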

How the results depend on the processing

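Of 1544 values of the 10 genes under the alternatives, 1370 kept their direction and side of the threshold, 113 lost a call, 21 gained one and 40 changed sign. The arrays hold 2 or 3 replicates and no detection calls, and signals near the array medians (CDC25A and CDC25C with both drugs) have rough folds. The causes of the changes below were not tested, except that fewer arrays leave fewer degrees of freedom.

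With control replicate 2 included the 10 genes gave 0, 0, 4, 3, 4, 0 and 2 calls and all genes 1268, 480, 1856, 542, 389, 479 and 119 calls, for Wee1 inhibitor II, 17-AAG and both drugs against control, both drugs against 17-AAG and against Wee1 inhibitor II, 17-AAG against Wee1 inhibitor II, and the interaction, against 3, 5, 10, 10, 9, 4 and 8 of the 10 genes and 4922, 3309, 5539, 3816, 2791, 3696 and 2331 of all genes. Signs then turned for CCNB1 (0.45), CCNA2 (0.31) and PLK1 (0.43) with Wee1 inhibitor II, and for PKMYT1 (0.15), CCNB1 (0.023), CCNB2 (0.60) and PLK1 (0.14) with 17-AAG. With only the arrays compared, Wee1 inhibitor II gave 2461 calls, 17-AAG 0 of the 10 genes and 0 of all genes (limma, 4816 at an unadjusted p under 0.05), and 17-AAG against Wee1 inhibitor II 1 and 2307.

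Centring each array on its median shifted the median of all genes by -0.31, -0.12 and -0.34 in the 3 comparisons with control. The share of calls that were lower then rose from 41.5%, 40.6% and 40.3% to 73.9%, 58.5% and 71.2%. For both drugs against 17-AAG it rose from 43.7% to 75.6%, and for 17-AAG against Wee1 inhibitor II it fell from 54.4% to 26.2%. For the interaction it went from 59.1% to 47.6%. Of the 10 genes 5 were called with Wee1 inhibitor II and 1 for 17-AAG against Wee1 inhibitor II, while all 10 stayed called with both drugs. Signs turned with Wee1 inhibitor II for WEE1 (-0.046), CCNB2 (-0.16), CDC25B (-0.083) and CDC25C (-0.23), with 17-AAG for WEE1 (-0.092) and CDC25B (-0.033), and between the single drugs for CDC25B (0.051). Counts of lower genes with Wee1 inhibitor II grew to 12, 4, 10, 11, 14, 15 and 16 in the 7 lists, in the order of the text. Quantile normalisation turned CDC25C with Wee1 inhibitor II (-0.13), and shifted the median of all genes by at most 0.15 in size.

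Averaging the probe sets of each gene gave 3215, 1768, 2370, 1664, 2283 and 1099 calls of all genes for Wee1 inhibitor II, 17-AAG, both drugs against each single drug (17-AAG first), the single drugs and the interaction, and 3 of the 10 genes with 17-AAG and 2 between the single drugs. It turned CCNB1 with Wee1 inhibitor II (0.14), WEE1 (-0.063), CDK1 (-0.038) and CCNB2 (0.12) with 17-AAG, and CCNB2 with both drugs against control (0.53) and against 17-AAG (0.40). Of single probe sets, dim CCNB2 ones turned at 2.06, 0.67, 2.15, 0.10, 1.05, 1.14 (with both drugs or the interaction) and 0.58 (17-AAG), a dim CDC25C one at 0.60 and 0.18 with both drugs, and others of CCNB1 with Wee1 inhibitor II (0.35), WEE1 (-0.15) and CDK1 (-0.20 and -0.16) with 17-AAG. Trended and robust empirical Bayes, leaving out the dimmest 40% of genes and the floor of 32 each gave 5 of the 10 genes with Wee1 inhibitor II, and the second gave 3558 calls for the interaction.

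Leaving out 1 array gave 2 to 3, 3 to 6, 10 to 10, 9 to 10, 9 to 10, 1 to 5 and 8 to 8 calls of the 10 genes, and 3225 to 4891, 1705 to 3159, 4009 to 5494, 2739 to 3590, 1996 to 2819, 2719 to 3453 and 1350 to 2223 calls of all genes, in the order above. Signs turned within the range for CDK1 with Wee1 inhibitor II (-0.30 to 0.046, above 0 without Wee1 inhibitor II replicate 2 or control replicate 3), CDC25C with Wee1 inhibitor II (-0.056 to 0.22, below 0 without control replicate 1), WEE1 with 17-AAG (-0.032 to 0.089, below 0 without control replicate 1 or 17-AAG replicate 1) and CDC25A between the single drugs (-0.10 to 0.34, below 0 without Wee1 inhibitor II replicate 3).

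With the replicate number as a block, 2 of the 10 genes were called between the single drugs and 1483 genes for the interaction. CCNA2 with Wee1 inhibitor II (adjusted p = 0.0532) and PLK1 with 17-AAG (0.0623) lost their calls, CCNB2 and PLK1 lost theirs between the single drugs, and CDC25A gained 1 for both drugs against Wee1 inhibitor II (0.038, limma). Arrays that share a number deviated from their group means with correlations of -0.13 to 0.097 over 15 pairs. These correlations cannot show whether such arrays were handled together, and the titles give only the number.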
